A study of Mus musculus with 4 samples.

Results

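The genes described here encode 4 classes of pre-mRNA splicing proteins: SR proteins (gene symbols starting with Srsf), hnRNP proteins (Hnrnp), the subunits of splicing factors SF3A and SF3B (Sf3a, Sf3b) and small nuclear ribonucleoprotein (snRNP) proteins (Snrp). They were chosen by gene symbol alone, among the probe sets that the platform annotation pairs with a single gene. This gave 47 genes out of 17097, comprising 9 SR proteins, 17 hnRNP proteins, 9 SF3 subunits and 12 snRNP proteins, measured by 118 probe sets. Each gene was represented by its brightest probe set, by mean signal across the 4 arrays. Splicing is carried out by the spliceosome, in which snRNPs recognise the ends of introns and SF3A and SF3B help the U2 snRNP bind the branch point. SR proteins mostly bind exons and favour their inclusion, while hnRNP proteins coat nascent RNA and often favour skipping. Lymphocytes use these proteins to switch isoforms of receptors such as CD45 and of membrane and secreted antibodies.

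RNA came from B cells of lymph nodes of male Balb/C mice aged 6 to 8 weeks, isolated by magnetic removal of other cells and of dead cells, and was measured on Affymetrix 3' arrays. There were 2 wild type mice and 2 mice transgenic for miR-146a, a microRNA known to restrain Toll-like receptor signalling. Each mouse gave 1 array, and the promoter of the transgene and the number of transgenic lines are not given in the sources used here. All values are log2 signals as deposited, so a difference of 1 is a 2-fold difference in signal. A level cannot be compared between genes, because probes differ in brightness.

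The product of the transgene is shown because it defines the groups, from RefSeq (GRCm38.p6, chr11:43374435-43374456, minus strand), with the seed, bases 2 to 8, in capitals.
mmu-miR-146a-5p: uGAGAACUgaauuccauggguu

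The arrays differed in ways that touch every gene below. The array of transgenic mouse 1 was dimmer, with a median of 4.48 against 4.59 to 4.61 on the other 3 and an upper quartile of 6.13 against 6.51 to 6.55. For beta-actin, the 3' probe set minus the middle one came to 0.47 on this array and to 0.14 to 0.16 on the others. B cell markers were present on all arrays, but all 11 measured of 12 lay lower in both transgenic mice, with a median difference of -0.85 and a summed linear signal of 9587 to 10281 against 16941 to 17762. T cell markers were also present, 9 of 10 lay higher in both transgenic mice (Cd4 lay lower, by -0.79), and their summed signal was 12908 to 14445 against 10395 to 10601. Neutrophil markers summed to 1507 to 2118 against 416 to 418. Natural killer cell markers summed to 2445 to 3025 against 2446 to 2524, and monocyte, macrophage and dendritic cell markers to 1821 to 2167 against 1441 to 1447. Of the 8 natural killer cell markers 7 had positive differences, while Gzma differed by -0.96. Stroma and endothelium, with 4 of 7 markers near background (Col1a1, Col1a2, Pdpn and Vwf), summed to 199 to 202 against 221 to 244. Erythroid and platelet markers, with Pf4, Ppbp and Slc4a1 near background, summed to 4690 to 5489 against 4033 to 4073. Hba-a1 made up most of this sum, and of the 6 markers 4 had positive and 2 negative differences. In bulk samples like these, fewer cells of a type and less RNA per cell cannot be told apart. Xist, which female cells transcribe, was at 9.13 and 9.56 in the transgenic mice and at 5.96 and 6.19 in the wild type mice, although all are labelled male, and Y-linked Eif2s3y was at 7.80 to 8.34 on all arrays. The part of these differences in the results below was not tested.

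Splicing factor and hnRNP genes differed little between transgenic and wild type B cells. None of the 47 genes passed an adjusted p of 0.05 by limma (smallest adjusted p = 0.237), where 0.0468% of all genes passed. At an unadjusted p under 0.05 there were 5 genes, 4 lower and 1 higher. That share of 10.6% lies beside 14.1% of all genes. The differences ran from -0.46 for Hnrnpul1 to 0.44 for Hnrnpll, with a median of -0.11, against a median of -0.053 over all genes. On its brightest probe set no gene of the 47 differed by more than 0.5 log2 units in either direction. By contrast, 9.21% of all genes and 10.7% of the 2983 genes with a mean signal of 8 or more did. Of the 118 probe sets 2 did (1.69%, beside 9.79% of all probe sets), of Hnrnpdl (-0.76) and Sf3a1 (-0.53). For 46 of the 47 genes the 95% interval of the difference by limma lay within 1 log2 unit of 0 on both sides, and the median half-width of the intervals was 0.36.

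Without overlap, meaning that both transgenic values lay on the same side of both wild type values, 17 of the 47 genes were lower (36.2%) and 5 were higher (10.6%). Over all genes 31.4% were lower and 17.7% higher in this sense. Over genes with a mean signal of 8 or more, the range in which 44 of the 47 lay, 43.3% were lower and 13.7% higher. The median difference of those 44 genes was -0.14, the same as over all genes that bright. The share of splicing genes on either side thus lay near that of other bright genes.

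**Figure D1:**
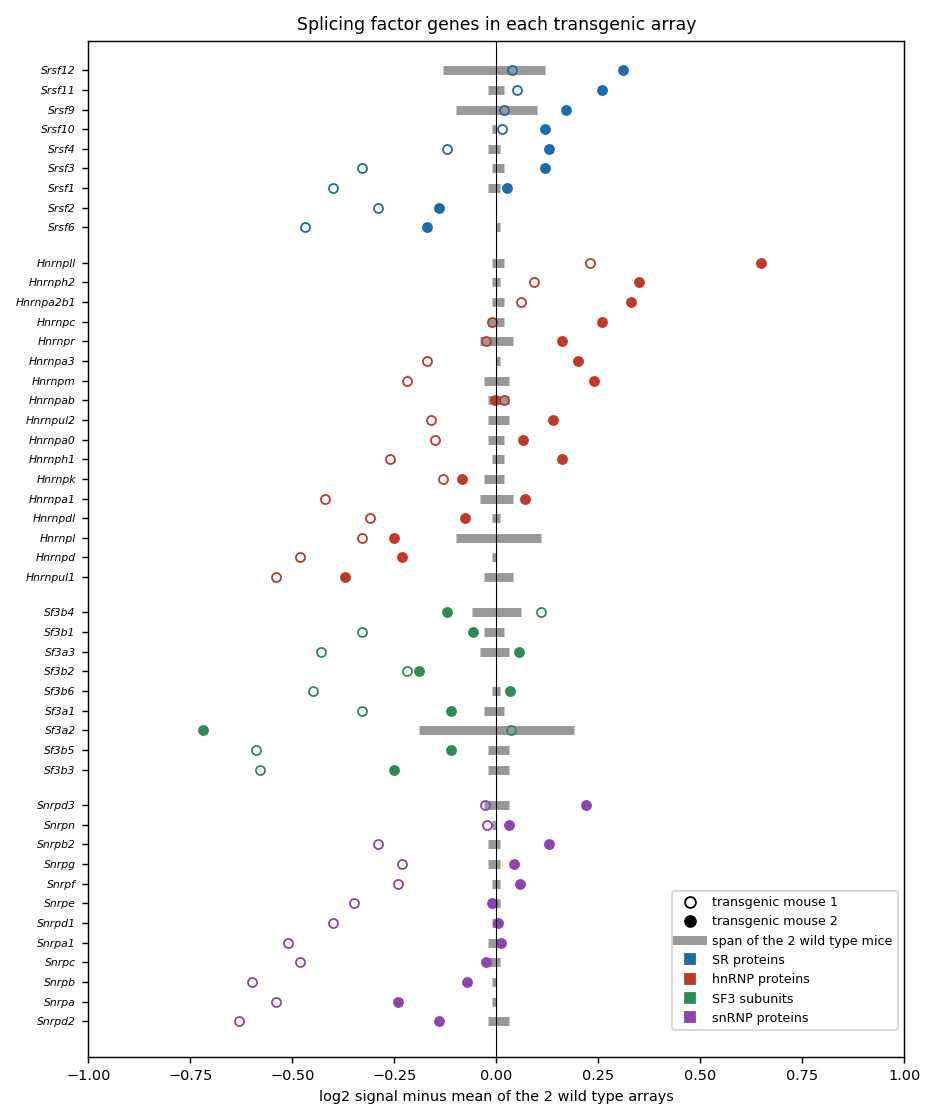
Log2 signal of each of the 47 genes in transgenic mouse 1 (open circles) and transgenic mouse 2 (filled circles), minus the mean of the 2 wild type mice, whose span is the grey bar; genes are grouped by class and ordered by their mean difference. Mouse 1 lies to the left of mouse 2 for 44 of the 47 genes, and the filled circles scatter on both sides of 0.

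The 2 transgenic mice contributed unequally. On the array of transgenic mouse 1, 34 of the 47 genes lay below both wild type mice and 6 lay above both, with a median of -0.26 from the wild type mean. Of genes with a mean signal of 8 or more, 80.4% lay below both and 14.6% above both (median -0.29). On the array of transgenic mouse 2, 19 of the 47 lay below both and 25 above both, with a median of 0.031. Of genes with a mean signal of 8 or more, 44.4% and 46.7% did (median 0.0067). Mouse 1 was below mouse 2 for 44 of 47 genes (93.6%), as it was for 93.1% of all genes with a mean signal of 8 or more. Without transgenic mouse 2, 24 of the 47 genes passed limma's adjusted p of 0.05 as lower, but 42.4% of all probe sets passed as well. Without transgenic mouse 1 a single gene, Hnrnpll, passed as higher, among 9.19% of all probe sets. These fits leave 1 array in the transgenic group, which is assumed to vary like the wild type group. The wild type mice were close to each other, with an SD of 0.085 for their difference across the 47 genes against 0.22 between the transgenic mice.

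SR proteins showed no common direction. Of 9 genes, 2 were lower and 2 higher without overlap (22.2% each way, beside 43.3% lower and 13.7% higher among genes with a mean signal of 8 or more), 5 overlapped, and the median difference was 0.0051. None had an unadjusted p under 0.05. Srsf6, a regulator of alternative exons, was at 10.36 and 10.35 in wild type mice and at 9.89 and 10.19 in transgenic mice. Both transgenic values lay lower (difference -0.32, SE 0.14, limma adjusted p = 0.409). Srsf2, also called SC35 and a long-used marker of nuclear speckles, was at 10.73 in both wild type mice and at 10.44 and 10.59 in transgenic mice (difference -0.21, SE 0.11, limma adjusted p = 0.456). The other probe sets of Srsf2 overlapped and differed by -0.13, 0.001, 0.086 and 0.23. Srsf11 lay higher in both transgenic mice, at 9.74 and 9.94 against 9.67 and 9.71 (difference 0.15, SE 0.12, limma adjusted p = 0.601), but its other 2 probe sets differed by -0.25 and -0.20. Srsf3, the smallest classical SR protein and a shuttling export adaptor, overlapped, with 10.63 and 10.66 against 10.32 and 10.76.

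The remaining SR genes stayed close to the wild type level. Srsf1, the founding member of the family, differed by -0.19 with overlap, and Srsf4 by 0.0051. Srsf9 differed by 0.097 with overlap, and Srsf10, which acts as a splicing repressor when dephosphorylated, by 0.066 without overlap. The other probe sets of Srsf10 ran from -0.1 to 0.33. Srsf12 read 2.74 to 3.17 across the mice, while control probes that match no transcript averaged 2.83 to 2.95, so it was not measured above background. It is the single gene of the 47 that a filter on dim probe sets removed.

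The promoter of Srsf2 is given as an example of the SR class (RefSeq, GRCm38.p6, chr11:116853095-116853344, minus strand, the 250 bases before the start of the gene), because it holds 5 matches to the GC box letters. Capitals mark matches on either strand to the GC box (letters GGGCGG), to the CCAAT box, to the TATA box (letters TATAAA) and to the letters of an ETS site (CCGGAAG). Neighbouring GC box matches can overlap.
Srsf2: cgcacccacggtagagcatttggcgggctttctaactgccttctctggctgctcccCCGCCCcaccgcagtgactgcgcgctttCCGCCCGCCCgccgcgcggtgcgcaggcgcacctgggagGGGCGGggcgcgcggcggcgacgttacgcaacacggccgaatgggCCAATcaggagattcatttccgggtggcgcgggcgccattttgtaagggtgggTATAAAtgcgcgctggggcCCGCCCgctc

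Of the 47 genes, 41 had at least 1 promoter in the RefSeq table, and some had several. GC box letters were in the promoters of 8 of 9 SR genes. Over promoters rather than genes they were in 91.7% of those of SR genes, 63.6% of those of all splicing genes described here and 32.7% of all 32851 promoters. The SR promoters had a median of 33 CG dinucleotides in 250 bases, against 6 over all promoters. A match is a description of the sequence and not a binding site.

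The hnRNP proteins held both ends of the range of differences. Of 17 genes, 5 were lower (29.4%) and 3 higher (17.6%) without overlap, beside 43.3% and 13.7% of genes with a mean signal of 8 or more. The other 9 overlapped, and the median difference was -0.014. At an unadjusted p under 0.05 there were 3 (17.6%, beside 14.1% of all genes), of which 2 were lower and 1 higher. Hnrnpul1, a nuclear protein linked to transcription and the response to DNA breaks, was at 10.33 and 10.40 in wild type mice and at 9.82 and 9.99 in transgenic mice. Both transgenic values lay below both wild type values, a 1.37-fold lower signal (difference -0.46, SE 0.11, 95% interval -0.75 to -0.16, limma adjusted p = 0.237). It differed in the same direction without transgenic mouse 1 (-0.37) and without transgenic mouse 2 (-0.54, limma adjusted p = 0.00632, with 42.4% of all probe sets passing).

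Hnrnpd, also called AUF1 and known for binding AU-rich elements that control mRNA decay, was at 10.62 and 10.61 in wild type mice. It was at 10.13 and 10.39 in transgenic mice (difference -0.36, SE 0.13, limma adjusted p = 0.338). Hnrnpl, a repressor of CD45 variable exons, was at 8.94 and 9.15 against 8.71 and 8.79 (difference -0.29, SE 0.12, limma adjusted p = 0.394). Hnrnpk, a poly(C)-binding protein, differed by -0.11. Its transgenic values, 10.89 and 10.93, still lay below both wild type values, 10.99 and 11.04.

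Hnrnpll had the highest difference of the 47 genes. It encodes hnRNP LL, a relative of hnRNP L known for the switch of CD45 isoforms in activated T cells and for antibody isoforms in plasma cells. The gene was at 7.25 and 7.28 in wild type mice and at 7.50 and 7.92 in transgenic mice, without overlap. This is a 1.36-fold higher signal (difference 0.44, SE 0.17, 95% interval 0.0048 to 0.88, limma adjusted p = 0.362). Its second probe set differed by 0.35, from 6.35 and 6.42 to 6.52 and 6.97. The gene passed after quantile normalization (difference 0.64, limma adjusted p = 0.0447), where 1.93% of all probe sets passed. Without transgenic mouse 1 its difference was 0.65. T cell markers lay higher on the same arrays (median difference 0.31 over 10 genes) and B cell markers lower (-0.85 over 11). The part of these cells in the Hnrnpll difference was not tested.

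Hnrnph2, an X-linked protein that binds G-rich sequences, was at 9.05 and 9.07 in wild type mice and at 9.15 and 9.41 in transgenic mice. Its values did not overlap (difference 0.22, SE 0.13, limma adjusted p = 0.508). Hnrnpa2b1, which binds and sorts mRNAs, was at 10.83 and 10.80 against 10.87 and 11.15 (difference 0.20, SE 0.13, limma adjusted p = 0.553). Its other probe sets differed by -0.15, -0.032 and -0.03, so the direction depended on the probe set.

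The abundant packaging proteins of the family differed by little on their brightest probe sets. Hnrnpc, a core protein of nascent RNA particles, was at 11.39 and 11.35 against 11.36 and 11.64. Hnrnpab was at 11.52 and 11.57 against 11.56 and 11.54, a difference of 0.0080 with a 95% interval from -0.24 to 0.26. Other probe sets of Hnrnpab differed by -0.30 and -0.28 (lower without overlap), 0.18 (higher without overlap) and -0.039 (overlapping). Hnrnpa1, an antagonist of Srsf1 in choosing splice sites, differed by -0.18 with overlap, and Hnrnpa0 and Hnrnpa3 by -0.045 and 0.020. Other probe sets of Hnrnpa3 differed by -0.29 and -0.23 (lower without overlap) and -0.16. Those of Hnrnpa1 differed by -0.29 and -0.16. Hnrnph1, Hnrnpm, Hnrnpr and Hnrnpul2 lay between -0.051 and 0.068, while other probe sets of Hnrnpr and Hnrnpul2 reached -0.35 and -0.32.

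**Figure D2:**
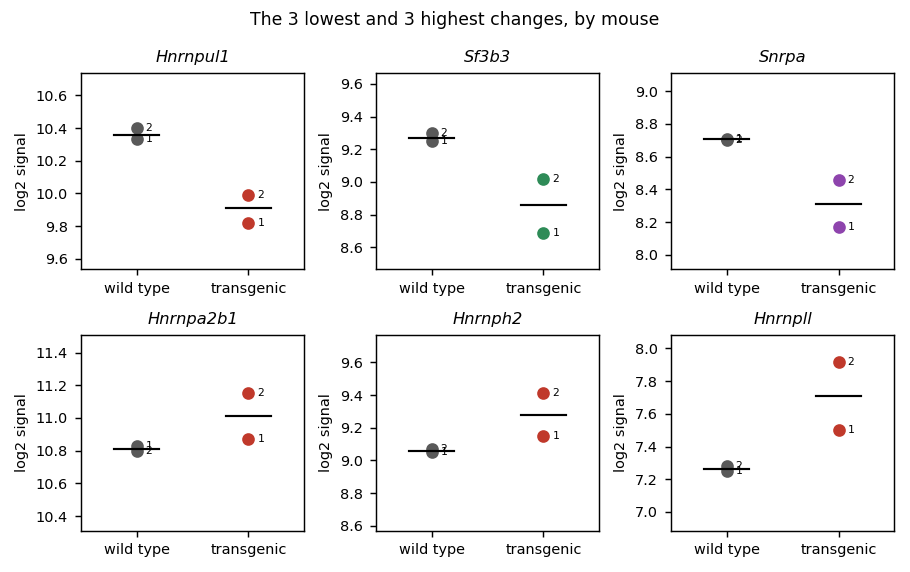
Log2 signal of the genes with the 3 lowest differences (Hnrnpul1, Sf3b3, Snrpa) and the 3 highest (Hnrnpa2b1, Hnrnph2, Hnrnpll) by mouse, each panel spanning 1.2 log2 units; points are mice with their number and lines are group means. The wild type points nearly coincide, and in all 6 panels transgenic mouse 1 lies below transgenic mouse 2.

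The promoters of the lowest and of the highest hnRNP gene with an entry in the table are shown because their differences have opposite signs (RefSeq, GRCm38.p6, capitals as above): Hnrnpul1 at chr7:25754760-25755009 on the minus strand and Hnrnph2 at chrX:134600929-134601178 on the plus strand.
Hnrnpul1: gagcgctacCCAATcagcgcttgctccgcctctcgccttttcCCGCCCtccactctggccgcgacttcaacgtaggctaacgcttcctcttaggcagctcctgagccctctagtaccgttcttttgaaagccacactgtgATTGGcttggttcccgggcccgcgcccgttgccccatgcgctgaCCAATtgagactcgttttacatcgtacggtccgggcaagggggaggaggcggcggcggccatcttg
Hnrnph2: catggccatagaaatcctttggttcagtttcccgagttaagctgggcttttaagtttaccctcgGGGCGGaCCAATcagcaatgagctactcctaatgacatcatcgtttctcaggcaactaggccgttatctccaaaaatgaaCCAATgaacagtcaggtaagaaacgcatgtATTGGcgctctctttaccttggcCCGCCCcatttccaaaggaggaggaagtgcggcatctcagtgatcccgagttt

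Both promoters held 3 CCAAT matches (CCAAT or its complement ATTGG), although the genes differed in opposite directions. CCAAT letters were in the promoters of 12 of 15 hnRNP genes. They were in 71.4% of hnRNP promoters, 28.6% of snRNP promoters and 33.8% of all promoters.

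All 9 SF3 subunits had negative differences (beside 2189 of the 2983 genes with a mean signal of 8 or more), most of them small. They ran from -0.42 to -0.0039 with a median of -0.21, and 5 were lower and none higher without overlap (4 overlapped). The share of 55.6% lower lies beside 43.3% of genes with a mean signal of 8 or more. Sf3b3, a large scaffold subunit of SF3B, was at 9.25 and 9.30 in wild type mice and at 8.69 and 9.02 in transgenic mice (difference -0.42, SE 0.15, limma adjusted p = 0.337). Sf3b5, a small subunit, was at 9.96 and 9.91 against 9.34 and 9.82 (difference -0.35, SE 0.18, limma adjusted p = 0.471). On these probe sets the transgenic values of both genes lay below the wild type values, and mouse 1 lay lowest. Another probe set of Sf3b3 overlapped (difference -0.09, with 7.83 and 7.81 against 7.50 and 7.96). Another of Sf3b5 overlapped too (-0.23, with 9.33 and 9.34 against 8.85 and 9.35).

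Sf3b2 was the SF3 gene on which the transgenic mice agreed best, at 8.82 and 8.85 against 9.04 in both wild type mice (difference -0.20, SE 0.096, limma adjusted p = 0.434). Sf3b1, the subunit often mutated in blood cancers, was at 10.35 and 10.40 against 10.05 and 10.32 (difference -0.19, SE 0.13). Sf3a1, which contacts the U2 snRNP, was at 8.39 and 8.44 against 8.09 and 8.30 (difference -0.22, SE 0.12). Another probe set of Sf3a1 differed by -0.53 (SE 0.13, limma adjusted p = 0.231). Sf3b6, which lies near the branch point, overlapped, at 10.14 and 10.12 against 9.69 and 10.17. Sf3a3 overlapped too, at 8.21 and 8.28 against 7.82 and 8.30.

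Sf3a2 and Sf3b4 departed from the order of the transgenic mice seen in the other SF3 genes. Sf3a2 was at 5.94 and 6.32 in wild type mice and at 6.17 and 5.42 in transgenic mice, the widest spread between replicates. Its 95% interval was the single one of the 47 to pass 1 log2 unit, reaching -1.1. Sf3b4 was at 9.48 and 9.60 against 9.65 and 9.42, with a difference of -0.0039. After each array was centred on the median of its brighter probe sets, the SF3 median was 0.023, so the direction of the class depended on the scaling. All genes had a median of 0.18 under that scaling.

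Most SF3 promoters shared a sequence feature. The gene symbols did not select it, but its letters were among the motif letters chosen after seeing the data. The ETS letters CCGGAAG, on either strand, were in the promoters of 6 of the 7 SF3 genes with an entry in the table. They were in 87.5% of SF3 promoters (8, of which 2 belong to Sf3b2 and overlap), 21.4% of snRNP promoters, 33.3% of SR promoters and 4.76% of hnRNP promoters, against 6.91% of all promoters. The SR promoters with a match all belong to Srsf4 and Srsf11. The letters contain CG, and the median number of CG dinucleotides was 18 in SF3 promoters, 23 in hnRNP promoters and 6 over all promoters. The part of CG content in these shares was not tested. The SF3 matches are shown with 10 bases on each side, read on the strand that gives CCGGAAG in capitals (RefSeq, GRCm38.p6). The positions in the order printed are chr11:4160337-4160363 (plus strand), chr10:80798649-80798675 (plus), chr4:124714761-124714787 (minus), chr19:5295452-5295478 (minus), chr8:110847016-110847042 (plus), chr12:4817513-4817539 (minus) and chr12:4817528-4817554 (plus).
Sf3a1: gagggcgggaCCGGAAGtgctcccgcg
Sf3a2: gcctttgctcCCGGAAGggatcgcttc
Sf3a3: tccgcgtgtcCCGGAAGtgtcttgggg
Sf3b2: gattacgcaaCCGGAAGtttctggaag
Sf3b3: cctcgcaagcCCGGAAGcgcccaccgg
Sf3b6, upstream match: ggattgcggaCCGGAAGgggcggggcg
Sf3b6, downstream match: ggtccgcaatCCGGAAGcgttctggag

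The match began 7 to 90 bases before the start of the gene in Sf3a1, Sf3a2, Sf3a3, Sf3b2 and Sf3b6, and 229 bases before it in Sf3b3. The Sf3b1 window held no match, which says nothing about factors that bind it. ETS family factors are abundant in lymphocytes, and no binding was measured here.

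The snRNP proteins also lay mostly on the lower side. Of 12 genes, 5 were lower and none higher without overlap (41.7% lower, beside 43.3% of genes with a mean signal of 8 or more). Negative differences were found in 10 of the 12, beside 2189 of the 2983 genes that bright, and the median of the class was -0.19. On the array of transgenic mouse 1, 11 of 12 lay below both wild type mice (median -0.38 from the wild type mean). Of the genes that bright 80.4% did (median -0.29). On the array of mouse 2, 5 snRNP genes lay below both and 5 above both (median 0.0073). This lies beside 44.4% and 46.7% of the genes that bright (median 0.0067). Without transgenic mouse 1 the class therefore had a median of 0.0073, and without transgenic mouse 2 one of -0.38.

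Snrpa, the protein A of the U1 snRNP, which binds a stem-loop of U1 RNA, was at 8.71 and 8.70 in wild type mice and at 8.17 and 8.46 in transgenic mice. Both transgenic values lay lower (difference -0.39, SE 0.14, limma adjusted p = 0.336). Snrpc, another U1 protein, which steadies pairing at the 5' splice site, was at 9.60 and 9.57 against 9.10 and 9.56 (difference -0.26, SE 0.18). The U2 proteins Snrpa1 and Snrpb2 overlapped, with differences of -0.25 and -0.080.

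Among the 7 proteins of the Sm ring, which encloses the spliceosomal RNAs, 3 were lower without overlap and the median was -0.18. Of genes with a mean signal of 8 or more 43.3% were lower in this sense, a similar share. Snrpd2 was at 10.60 and 10.55 against 9.95 and 10.43 (difference -0.39, SE 0.18, limma adjusted p = 0.442). Snrpb, the B and B' protein, was at 10.31 and 10.32 against 9.71 and 10.25 (difference -0.34, SE 0.20, limma adjusted p = 0.514). Snrpe was at 11.51 and 11.52 against 11.17 and 11.50 (difference -0.18, SE 0.15). In all 3 genes mouse 1 lay well below the wild type mice and mouse 2 within 0.14 of their mean. Snrpd1, Snrpf and Snrpg overlapped, with differences of -0.20, -0.092 and -0.091, and Snrpd3 differed by 0.098. Snrpn, an imprinted Sm gene best known from brain, was at 8.98 and 8.97 against 8.95 and 9.01, a difference of 0.0040.

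**Figure D3:**
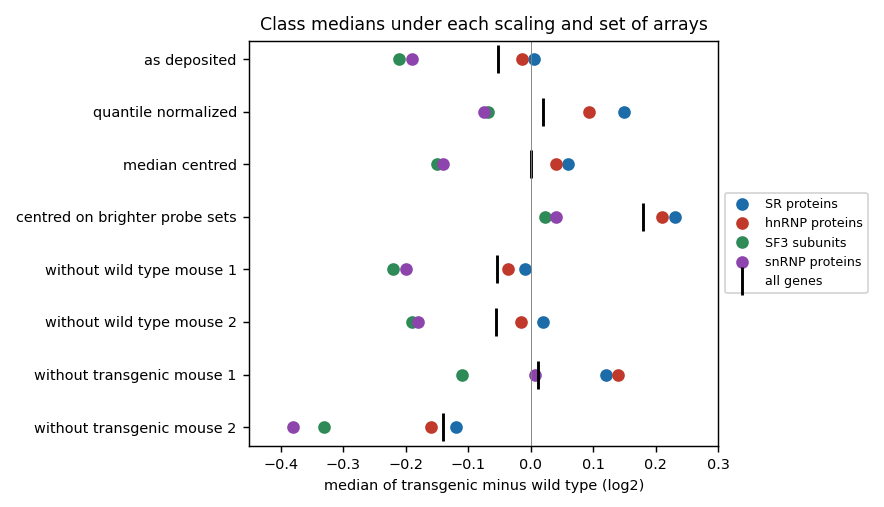
Median of transgenic minus wild type (log2) over the genes of each class (coloured points) and over all genes (black bars), for the deposited values, 3 other scalings and with each mouse left out. The SF3 and snRNP medians lie to the left of the SR and hnRNP medians in every line shown; both centrings shift all genes alike and so keep this order by construction.

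SF3 and snRNP medians both lay below the SR and hnRNP medians with the deposited values, after quantile normalization, with each mouse left out and with the other choices of probe set. Both centrings add 1 constant to every gene and cannot change this order. The class medians themselves moved: over all alternatives SF3 ran from -0.33 to 0.023 and SR proteins from -0.12 to 0.23. No test of the difference between classes was made, since genes of a class are not replicates. These settings also share the same arrays.

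**Figure D4:**
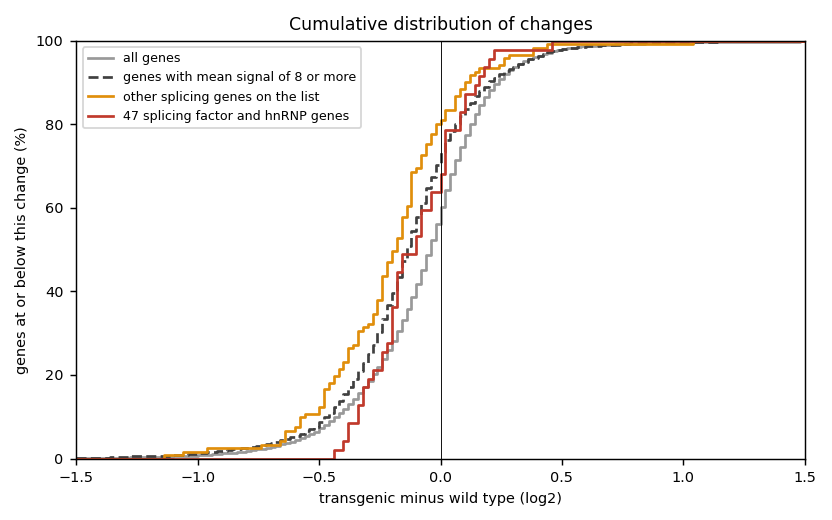
Percent of genes at or below each difference (transgenic minus wild type, log2) for the 47 splicing factor and hnRNP genes, 121 other splicing genes, all genes, and genes with a mean signal of 8 or more. The 47 genes span -0.46 to 0.44, and the other splicing genes extend to -1.15 and 1.03.

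Other genes of the splicing machinery were read from a list of 141 names, of which 121 were measured. By its brightest probe set none passed an adjusted p of 0.05 by limma (smallest adjusted p = 0.081, for Srpk3). At an unadjusted p under 0.05 there were 20 lower and 4 higher (19.8%, beside 14.1% of all genes). Without overlap 59 were lower (48.8%) and 10 higher (8.26%), beside 31.4% and 17.7% of all genes and 43.3% and 13.7% of genes with a mean signal of 8 or more. The median was -0.20. Quantile normalization brought this median to -0.038, and leaving out transgenic mouse 1 brought it to -0.040. By more than 0.5 log2 units in either direction, 16 of the 121 differed (13.2%, beside 9.21% of all genes and 10.7% of genes with a mean signal of 8 or more). None of the 47 reached this size on its brightest probe set.

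The 2 lowest differences belonged to partners of SR proteins. Srpk3, a kinase of SR proteins best known from muscle, was at 7.68 and 7.61 in wild type mice and averaged 6.49 in transgenic mice (SD 0.0068, n = 2). The groups were far apart (difference -1.15, SE 0.098, limma adjusted p = 0.081), and the gene passed limma's threshold after quantile normalization (-0.95, adjusted p = 0.0497) and median centring (-1.10, adjusted p = 0.0206). Tra2b, an SR-like activator of exons, was at 8.28 and 8.34 against 6.98 and 7.50 (difference -1.07, SE 0.20, limma adjusted p = 0.175). It passed after quantile normalization (-0.88, adjusted p = 0.0309) and median centring (-1.02, adjusted p = 0.0496). Of all probe sets 1.93% passed after quantile normalization and 1.36% after median centring. Among other kinases of SR proteins, Srpk1 differed by 0.057, Srpk2 by -0.069 and Clk1 by 0.22. Clk4 differed by -0.082 on its brightest probe set (8.02 and 8.11 against 7.87 and 8.10) and by 0.75 on another (5.97 and 6.47 against 6.90 and 7.04, limma adjusted p = 0.247).

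Mfap1a, a component of the spliceosome before activation, was the list's highest gene. Its brightest probe set was at 6.81 and 7.13 in wild type mice and at 7.87 and 8.13 in transgenic mice (difference 1.03, SE 0.17, limma adjusted p = 0.149). It passed after quantile normalization (1.22, adjusted p = 0.0286, with 1.93% of all probe sets passing) and median centring (1.08, adjusted p = 0.0377, with 1.36% passing). Its other 2 probe sets differed by 3.82 (limma adjusted p = 0.0359, past the threshold) and 3.02 (adjusted p = 0.0597), so the size of the difference depended on the probes. In the same complex, Prpf8, the scaffold of the catalytic core, was at 9.84 and 9.89 against 9.41 and 9.51 (difference -0.41, SE 0.10, limma adjusted p = 0.238).

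Of 23 genes of the catalytic steps 11 were lower (47.8%) and 1 higher (4.35%) without overlap, and 11 overlapped. Over all genes 31.4% were lower and 17.7% higher, and over genes with a mean signal of 8 or more 43.3% and 13.7%. Many of the 23 genes had a mean signal under 8, as Cwc27 did (5.86). Cwc27, a protein of the activated spliceosome, was at 6.26 and 6.22 against 5.30 and 5.66 (difference -0.76, SE 0.15, limma adjusted p = 0.191), and Xab2 differed by -0.58. Snrnp25, a protein of the minor spliceosome's U11 and U12 particle, was at 8.86 and 8.85 against 7.54 and 8.24 (difference -0.96, SE 0.25, limma adjusted p = 0.247). Snrnp35, of the same particle, differed by -0.49, and all 7 measured genes of the minor spliceosome had negative differences (median -0.39). Of all 17097 genes 10297 had negative differences, and of the 2983 with a mean signal of 8 or more 2189 did. The 7 genes had a median of -0.74 from the wild type mean in transgenic mouse 1 and of -0.1 in mouse 2. In mouse 2, 4 lay below both wild type mice and 2 above both, beside 37.7% and 43.0% of all genes.

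Of 8 LSm ring genes 3 were lower without overlap (37.5%, beside 43.3% of genes with a mean signal of 8 or more), led by Lsm7 (-0.66) and Lsm4 (-0.34). Early assembly genes had a median of -0.17, with Luc7l3 at -0.65 and Ddx46 at -0.28. Another probe set of Luc7l3 differed by -0.23, and the other probe sets of Ddx46 ran from -0.75 to 0.023. Exon junction genes had a median of -0.22, with Casc3 at -0.22 and Rbm8a at -0.27. Of 28 other RNA-binding regulators 12 were lower (42.9%) and 6 higher (21.4%) without overlap. This lies beside 31.4% and 17.7% of all genes, and 43.3% and 13.7% of genes with a mean signal of 8 or more. Fubp1 (-0.64) and Rbmx (-0.47) had the smallest p-values of this role. Other probe sets of Fubp1 differed by -0.67 and -0.081, and those of Rbmx by -0.1 and -0.082.

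**Figure D5:**
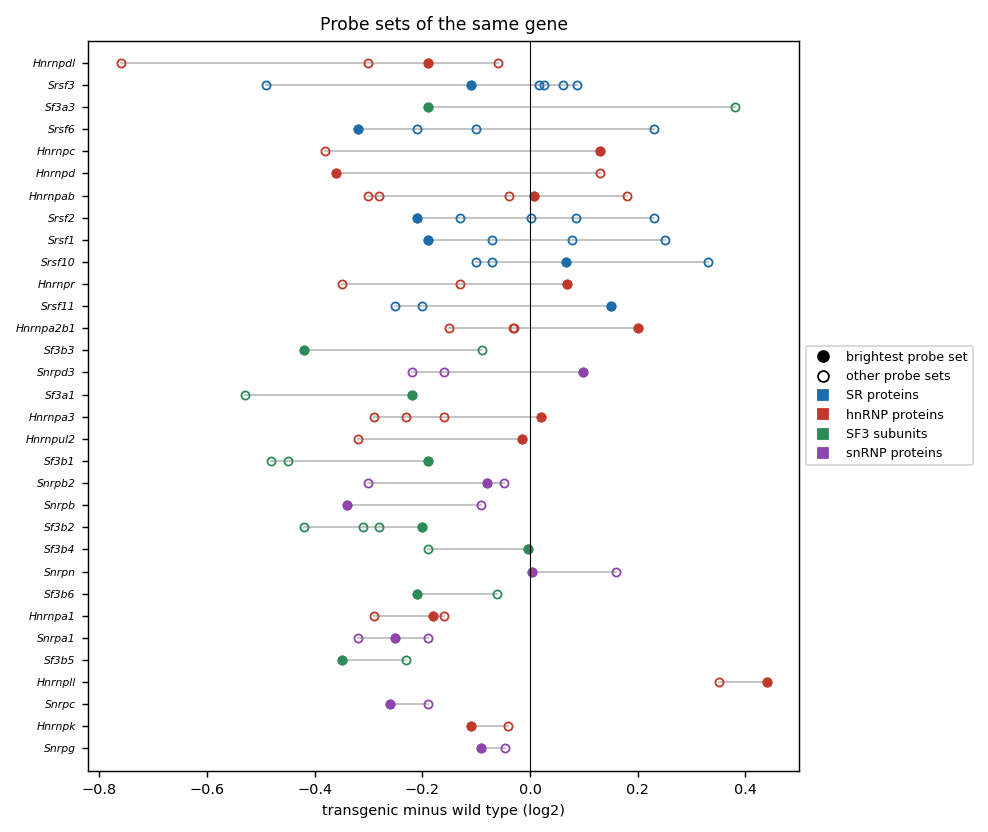
Difference (transgenic minus wild type, log2) of each probe set for the 32 genes with at least 2 probe sets above the filter on dim signals; filled circles are the brightest probe set, open circles the others, and genes are ordered by the range between their probe sets. The widest range is 0.70 for Hnrnpdl, and 14 genes have probe sets on both sides of 0.

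Probe sets of the same gene often disagreed in direction. Of 33 genes with several probe sets, 32 had at least 2 above the dim filter. Among these 14 had probe sets of both signs, 16 had only negative and 2 only positive differences. The median range between probe sets was 0.31, and 5 genes had a range over 0.5. None of the 118 probe sets passed limma's adjusted p of 0.05.

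Hnrnpdl, a paralogue of Hnrnpd that regulates its own splicing, had the widest range. Its brightest probe set was at 11.68 and 11.66 in wild type mice and at 11.36 and 11.59 in transgenic mice, a difference of -0.19. Another probe set was at 9.45 and 9.39 against 8.52 and 8.79, a difference of -0.76 (SE 0.13, limma adjusted p = 0.161), the largest of the 118. The other 2 probe sets of the gene differed by -0.30 and -0.059.

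SR genes gave similar contrasts. A probe set of Srsf3 was at 8.50 and 8.32 against 7.69 and 8.15 (difference -0.49, SE 0.19), while the other 5 lay between -0.11 and 0.088. One probe set of Srsf6 lay higher, at 10.17 and 10.09 against 9.85 and 9.96 (difference 0.23, SE 0.11), while the other 3 were negative (-0.32, -0.21 and -0.10). SR genes are known to make transcripts with poison exons or retained introns, but which transcript each probe set detects was not analysed here.

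Among the remaining genes with a wide range, Sf3a3 had 1 probe set at -0.19 and 1 at 0.38. Hnrnpc was at 0.13 on its brightest probe set and at -0.38 on another, where the values were 8.93 and 9.01 against 8.45 and 8.72. Hnrnpd was at -0.36 on its brightest probe set and at 0.13 on a much dimmer one. By contrast all 3 probe sets of Sf3b1 (-0.19, -0.45 and -0.48) and all 4 of Sf3b2 lay on the lower side. Of the 47 brightest probe sets, 8 carry the suffix that Affymetrix gives to probes shared by several transcripts, so close relatives or pseudogenes can contribute to them.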

How the data were processed

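The deposited table holds log2 signals, 1 per probe set and array; the authors' background correction, normalization and summary of probes are not given in the sources used here, and the scale was inferred from their range (2.01 to 13.03). Probe sets were named by the platform annotation (28898 with 1 gene, 551 with several, 15588 with none; all 47 genes matched RefSeq by Entrez ID). From the rule's symbols, 8 probe sets that carry several genes were left out. After 104 control probe sets were removed, limma 3.58.1 in R 4.3.3 compared transgenic with wild type mice by lmFit and eBayes (2 residual and 2.69 prior degrees of freedom). Its two-sided p-values were adjusted by Benjamini-Hochberg across all 45037 remaining probe sets, with a threshold of 0.05. The fit was tested on simulated data. Each array is a separate mouse by title. With 2 mice per group an exact two-sided permutation test cannot go below p = 0.333, and the number of arrays limits precision. The dim filter drops probe sets whose mean is under 4.1, the 40th percentile. Same-numbered mice did not deviate together (correlation 0.014), so no block was used.

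Named genes follow a rule: per class the 4 smallest p and 2 brightest, the 3 lowest and 3 highest differences, the 6 widest ranges between probe sets, and any past the threshold; from the other splicing genes, the 2 smallest p per role. Other genes and probe sets named with a value (the remaining members, 4 SR kinases, and probe sets such as those of Sf3a1, Sf3b1 and Sf3b2) were chosen after their values were seen. Genes and lists were chosen with earlier results of these data known. Alternatives were a replicate block, quantile normalization, median centring, the dim filter, trended robust eBayes, other probe set choices and leaving out each mouse. The signal cut of 8, the motif letters and a centring on brighter probe sets were chosen after seeing the data. Promoters are the 250 bases before each RefSeq start. Figures used matplotlib 3.10.9.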

Additional observations from a re-analysis of the deposited data

How the results depend on the processing

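With 2 mice per group, every value rests on 4 arrays and the level depends on how the dim array of transgenic mouse 1 is scaled. Of all probe sets 21 passed limma's adjusted p of 0.05 as deposited, 870 after quantile normalization, 614 after median centring, 51 after the dim filter, 332 after centring on brighter probe sets, 15 with the replicate block and 0 to 19110 with a mouse left out. Of the 47 splicing genes 1 passed after quantile normalization, 0 to 24 passed with a mouse left out, and 0 under the other alternatives; the replicate block changed no call among them. Counts without overlap were 8 lower and 24 higher after centring on brighter probe sets, 17 higher after quantile normalization, 11 higher after median centring and 2 higher for the mean of all probe sets of a gene. With a mouse left out they ran from 17 to 34 lower and from 6 to 25 higher. The matching shares over all genes are not given here, so these counts cannot be read as particular to the splicing genes. The median over all genes moved as well. It was -0.053 as deposited, 0.18 after centring on brighter probe sets, 0.02 after quantile normalization and 0.001 after median centring. With a mouse left out it ran from -0.14 to 0.012.

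The median of the 47 genes was -0.11 as deposited, 0.12 after centring on brighter probe sets (0.18 over all genes) and -0.26 to 0.031 with a mouse left out. For the other splicing list it was -0.20, and -0.038 after quantile normalization, 0.034 after centring on brighter probe sets and -0.34 to -0.04 with a mouse left out.

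Of the 47 genes, 15 had positive differences as deposited and 23 after quantile normalization. The count was 35 after centring on brighter probe sets and 27 without transgenic mouse 1. Genes outside the naming rule that changed sign are not listed. The genes below were named by that rule and changed sign under an alternative. None passed limma's threshold as deposited or with the changed sign, but Hnrnpd, Hnrnpdl, Sf3a1, Sf3a3, Sf3b1, Sf3b6, Snrpe, Srsf2, Srsf3 and Srsf6 passed as lower without transgenic mouse 2. The cause was not tested. After centring on brighter probe sets the sign turned for Hnrnpdl (0.037), Sf3a1 (0.0079), Sf3a3 (0.041), Sf3b1 (0.035), Sf3b2 (0.025), Sf3b6 (0.023), Snrpe (0.051), Snrpg (0.14), Srsf2 (0.016), Srsf3 (0.12) and Casc3 (0.013). After quantile normalization it turned for Srsf3 (0.021). As the mean of all probe sets it turned for Hnrnpa2b1 (-0.003), Hnrnpab (-0.087), Hnrnpc (-0.14), Sf3a3 (0.096) and Srsf11 (-0.098). With probe sets whose names end in _at without a further suffix letter, it turned for Hnrnpa2b1 (-0.032), Hnrnpc (-0.38), Hnrnpd (0.13), Srsf2 (0.086) and Srsf6 (0.23). With a mouse left out, Hnrnpab ran from -0.014 to 0.03, Hnrnpc from -0.011 to 0.26, Sf3a3 from -0.43 to 0.055, Sf3b6 from -0.45 to 0.033, Snrpg from -0.23 to 0.043 and Srsf3 from -0.33 to 0.12.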
